A study of Mus musculus with 2 samples.

Results

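The 9 genes 1700028P14Rik, Pthlh, Cav2, Iqub, Wdr63, Fam183b, Kcnj6, Chodl and Abca13 were grouped because their transcripts were more abundant in cells that held a transcript of Dbx1 than in cells that did not. They were read in 2 single-cell RNA libraries of the embryonic mouse telencephalon, each on its own, as counts of unique molecular identifiers (UMIs, one per captured transcript). All 9 are listed in both tables, among 28001 features in the septal library and 32286 in the telencephalic library. At least 50 UMIs were counted for 6 of the 9 in the septal library (13035 genes reached that number) and for 9 of 9 in the telencephalic library (16627 genes). Kcnj6, Wdr63 and Abca13 had only 4, 15 and 2 UMIs among the septal cells, so statements on these 3 genes rest mainly on the telencephalic library. Because the genes were chosen from the levels in Dbx1-positive and Dbx1-negative cells, every such comparison below is a description and carries no test.

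The septal library pooled dissected septum explants of 8 PGKCre;Rosa26YFP embryos at E11.5 (E stands for embryonic day) and 4 Dbx1Cre;Rosa26tdTomato embryos at E12.5, each set from 2 litters, in a C57BL/6J background and run with the Single Cell 3′ kit v2 from about 10000 input cells. PGKCre acts in all cells and switches on eYFP, whereas Dbx1Cre switches on tdTomato only in cells that express Dbx1 and in their progeny, so tdTomato could be made only in the 4 older embryos. The telencephalic library held the entire telencephalic vesicle of 3 wild-type embryos of 2 litters, labelled E12, run with kit v3.1 from 20000 input cells. The study's methods give the age of these embryos as E11.5 to E12. With 1 library per condition there is no replicate, so the intervals below cover counting error only and levels were never compared between the libraries. Embryos and litters were pooled before capture, and stage and genotype cannot be told apart in the septal cells.

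Dbx1 is a homeodomain transcription factor of the ventral pallium and septum. Progenitors that express it give rise to part of the Cajal-Retzius cells, the early-born, Reln-secreting neurons of the cortical surface, and to septal and ventral pallial neurons. Cajal-Retzius cells also arise from the cortical hem, and the septal and hem-derived ones are known for expressing Trp73. Of the 9 genes 3 were listed here as linked to motile cilia: Wdr63 is an intermediate chain of axonemal dynein, Iqub is a protein with an IQ motif and a ubiquitin-like domain found in the axoneme, and Fam183b is associated with cilia. The product of 1700028P14Rik was not classed here, so a link of this gene to cilia is not excluded. Pthlh encodes a secreted ligand (parathyroid hormone-related protein) of the receptor Pth1r. Cav2 is a caveolin of the plasma membrane, Kcnj6 is the G protein-gated inward rectifier channel GIRK2, Chodl is a membrane protein with a C-type lectin domain, and Abca13 is a large ABC transporter.

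The genes lie on chromosomes 19 (1700028P14Rik, 23558753 to 23652812, mm10), 6 (Pthlh, 147252101 to 147264183), 6 (Cav2, 17281185 to 17289115), 6 (Iqub, 24444865 to 24515067), 3 (Wdr63, 146040526 to 146108130), 11 (Fam183b, 58792797 to 58801960), 16 (Kcnj6, 94748636 to 94997701), 16 (Chodl, 78930948 to 78951733) and 11 (Abca13, 9191942 to 9684259). All are annotated as protein coding. On the opposite strand, 1700028P14Rik overlaps 3 annotated genes, Cav2 overlaps 1 and Kcnj6 overlaps 2. For the septal library the study's methods give default settings of the counting software, which count reads on the gene's own strand. For the telencephalic library the settings are not given in the sources used here, and if strand was not used the reads of such partners cannot be told apart.

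The promoters of 4 of the 9 genes held the letters GTTGCNNNG, where N is any base. This pattern was chosen after the sequences had been seen, and both strands were searched in windows of 250 bases before to 50 bases after each gene's start from RefSeq (GRCm38.p6, the build that mm10 names). Matches can overlap other motifs, and these were not searched. The sequences below are shown because they carry these matches. They read 5′ to 3′ on the gene's own strand, which is the minus strand for all 4, with the matching letters in capitals (for Wdr63 the matches are on the opposite strand and appear as their reverse complement).
1700028P14Rik, chr19:23652813-23652882: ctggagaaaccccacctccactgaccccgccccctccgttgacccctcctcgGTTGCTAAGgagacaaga
Iqub, chr6:24515068-24515137: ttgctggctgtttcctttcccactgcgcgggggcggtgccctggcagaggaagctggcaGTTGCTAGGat
Wdr63, chr3:146108056-146108085: atCTTAGCAACggacgcgtCCTAGCAACaa
Fam183b, chr11:58801961-58802030: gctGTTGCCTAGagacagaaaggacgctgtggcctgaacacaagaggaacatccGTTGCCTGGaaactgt

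Of these stretches 3 end at the base before the gene's start and overlap no annotated exon, and the Wdr63 stretch lies within an exon of a longer annotated Wdr63 transcript. The share of genes with a match was 44.4% for the 9 genes (4 of 9) and 15.4% for all genes with a window (4156 of 27025). It was 67.1% for a list of other motile axoneme genes (51 of 76) and 42.3% for a list of primary cilium genes (11 of 26). The windows of Pthlh, Cav2, Kcnj6, Chodl, Abca13 and Dbx1 itself held no match. A match is a run of letters and not a measured binding site.

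After removal of barcodes with outlying mitochondrial shares and of called doublets, 5384 septal cells with a median of 12868.5 UMIs and 11758 telencephalic cells with a median of 9058.5 UMIs were kept, and 1 barcode was shared by the libraries. Cells were put into classes by sets of marker genes that include neither Dbx1 nor any of the 9 genes, and the class names end in "-like" for that reason. The Cajal-Retzius-like class had 350 septal and 542 telencephalic cells, and 9 and 10 of its 10 listed markers, which include Trp73 and Reln, were each seen in over 5% of its cells. The septal glutamatergic neuron-like class had 413 and 267 cells, with 7 and 7 of 7 markers seen, and the basal progenitor-like class (Eomes, Neurog2) had 490 and 509 cells, with 8 and 8 of 8. Of all kept cells, 130 septal (2.41%) and 378 telencephalic ones (3.21%) lay close to the border between the neuron side and the progenitor side. Closeness to borders among the neuron-side classes or among the progenitor-side classes was not counted. The basal progenitor-like class was set whatever the side of a cell and was not counted with the neuron-side classes. Its median log2 ratio of summed neuron to apical progenitor markers, 2.25 in the septal and 1.52 in the telencephalic library, lay on the neuron side. In all, 192 and 2788 cells were left unassigned. Levels are summed UMIs as counts per 1000000 UMIs of the same cells (CPM), with exact Poisson 95% intervals.

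**Figure D1:**
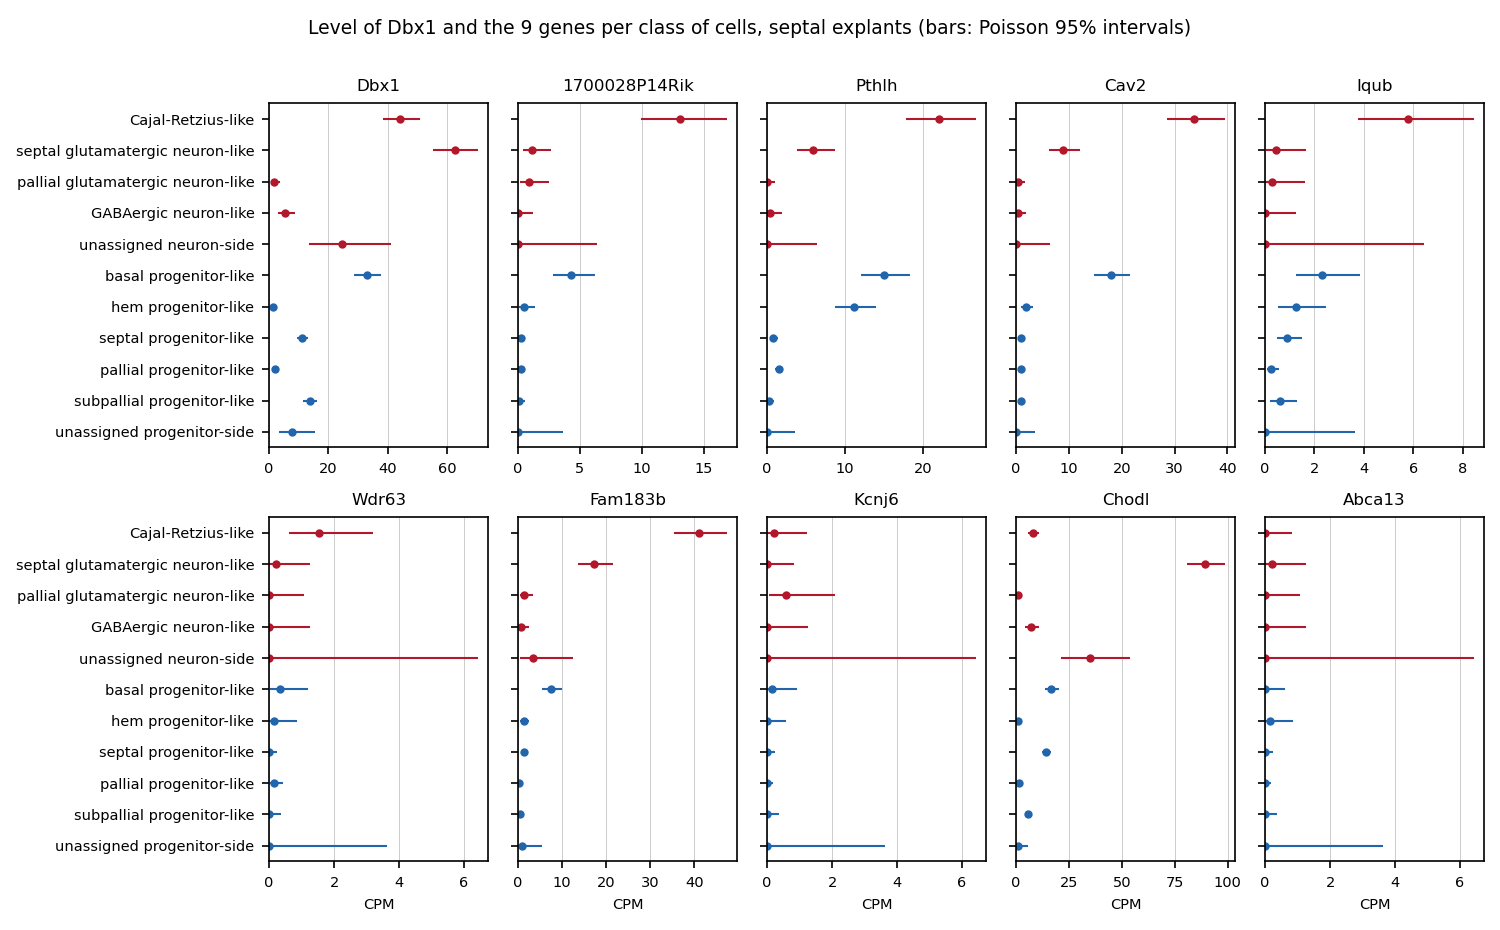
Level of Dbx1 and the 9 genes in each class of at least 50 cells of the septal library, in CPM on a linear axis that differs between panels. Points are the summed level and bars its Poisson 95% interval, with neuron-side classes in red. Progenitor-side classes and the basal progenitor-like class are in blue. The levels of 1700028P14Rik, Pthlh, Cav2, Iqub and Fam183b were highest in Cajal-Retzius-like cells, and Chodl was highest in septal glutamatergic neuron-like cells at 89.4 CPM.

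Of the genes with at least 50 UMIs in the septal library, 1700028P14Rik, Pthlh, Cav2, Iqub and Fam183b were highest in Cajal-Retzius-like cells, and Chodl was not. In the telencephalic library 1700028P14Rik, Cav2, Iqub, Wdr63 and Kcnj6 were, and Pthlh, Fam183b, Chodl and Abca13 were not. The share of all genes highest in this single class was not counted, and the shares below are for the whole neuron side. In the septal library the 6 genes with at least 50 UMIs were all highest in a class on the neuron side, as were 54.3% of all 13035 genes. For the telencephalic library the number was 7 of 9, against 37.8% of all 16627 genes, and the exceptions were Pthlh and Abca13. The 2 highest septal classes held 76.6% of the UMIs of 1700028P14Rik, 71.3% of those of Cav2 and 72.9% of those of Fam183b.

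Among the genes linked to cilia, Fam183b was at 41.0 CPM (35.3 to 47.4) in Cajal-Retzius-like cells of the septal library, at 17.3 CPM (13.6 to 21.6) in septal glutamatergic neuron-like cells and at 7.55 CPM (5.53 to 10.1) in basal progenitor-like cells. The step from the first to the second class was 2.38-fold (1.81 to 3.15). Iqub was at 5.77 CPM (3.77 to 8.45) in Cajal-Retzius-like cells and at 2.30 CPM (1.26 to 3.86) in basal progenitor-like cells. Wdr63 had 7 of its 15 septal UMIs in Cajal-Retzius-like cells, and its step to the next class, 4.73-fold with an interval of 0.9005 to 46.7, was not beyond counting error.

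Wdr63 had, among telencephalic cells, the largest step of the 9 genes, 8.24-fold (3.87 to 18.4), from 4.57 CPM in Cajal-Retzius-like cells to 0.555 CPM in hem progenitor-like cells. Iqub was at 5.01 CPM (3.17 to 7.52) in Cajal-Retzius-like cells and between 1.75 and 2.11 CPM in basal progenitor-, septal glutamatergic neuron-, hem progenitor- and septal progenitor-like cells. Fam183b was at 16.4 CPM (11.7 to 22.4) in septal glutamatergic neuron-like cells and at 13.9 CPM (10.7 to 17.8) in Cajal-Retzius-like cells, a ratio of 1.18 (0.768 to 1.78), so the order of these 2 classes was not beyond counting error. With all barcodes kept or with cells brought to equal depth the order was the other way round. The gene 1700028P14Rik, listed with the same pattern, was at 13.1 CPM (9.96 to 16.9) in septal-library and 7.40 CPM (5.13 to 10.3) in telencephalic Cajal-Retzius-like cells, 3.07-fold (1.90 to 5.07) and 5.88-fold (1.85 to 29.9) above its next class.

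Pthlh, the secreted ligand, was spread over 3 septal classes, with 22.0 CPM (17.9 to 26.7) in Cajal-Retzius-like, 14.9 CPM (12.03 to 18.3) in basal progenitor-like and 11.1 CPM (8.67 to 13.99) in hem progenitor-like cells. Hem progenitor-like cells of the telencephalic library led at 11.8 CPM (10.4 to 13.4) and held 72.3% of all Pthlh UMIs, 3.74-fold (2.22 to 6.77) above basal progenitor-like cells. The hem class contained 345 septal and 1018 telencephalic cells. Few hem progenitor-like cells held Dbx1, 4 of 345 and 18 of 1018.

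Cav2 was at 33.7 CPM (28.6 to 39.5) in septal-library Cajal-Retzius-like cells, 17.9 CPM (14.7 to 21.6) in basal progenitor-like and 8.85 CPM (6.29 to 12.1) in septal glutamatergic neuron-like cells. The telencephalic order began with Cajal-Retzius-like cells at 16.3 CPM (12.8 to 20.5) and fell 2.78-fold (1.56 to 5.32) to septal glutamatergic neuron-like cells. The 18 endothelial cells of that library, a class too small to be compared, held 22 Cav2 UMIs (37.8 CPM, 23.7 to 57.3).

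Kcnj6, with 111 UMIs in the telencephalic library, was at 8.28 CPM (5.86 to 11.4) in Cajal-Retzius-like, 4.43 CPM (2.74 to 6.78) in basal progenitor-like and 3.78 CPM (1.73 to 7.18) in septal glutamatergic neuron-like cells. The first 2 classes differed 1.87-fold (1.07 to 3.35). Chodl followed another order. It reached 89.4 CPM (80.8 to 98.7) in septal glutamatergic neuron-like cells of the septal library, 2.57-fold (1.64 to 4.25) above unassigned neuron-side cells, while basal progenitor- and septal progenitor-like cells were at 16.7 and 14.3 CPM and Cajal-Retzius-like cells at 7.99 CPM (5.59 to 11.05). Among telencephalic cells Chodl was at 9.66 CPM (6.13 to 14.5) in septal glutamatergic neuron-like and 4.01 CPM (3.24 to 4.92) in septal progenitor-like cells, and at 1.09 CPM (0.354 to 2.54) in Cajal-Retzius-like cells.

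Abca13 had no UMI in 542 telencephalic Cajal-Retzius-like cells, which allows up to 0.653 CPM by a floor of 3 counts. Its levels were 2.14 CPM (0.924 to 4.22) in mesenchyme, 1.55 CPM (0.983 to 2.33) in unassigned progenitor-side cells and 0.872 CPM (0.533 to 1.35) in septal progenitor-like cells, and the first 2 did not differ beyond counting error. One unassigned cell alone held 15 of the 23 Abca13 UMIs of its class. Among the 9 genes of this library, Abca13 and Pthlh were highest outside the neuron side, in different classes.

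**Figure D2:**
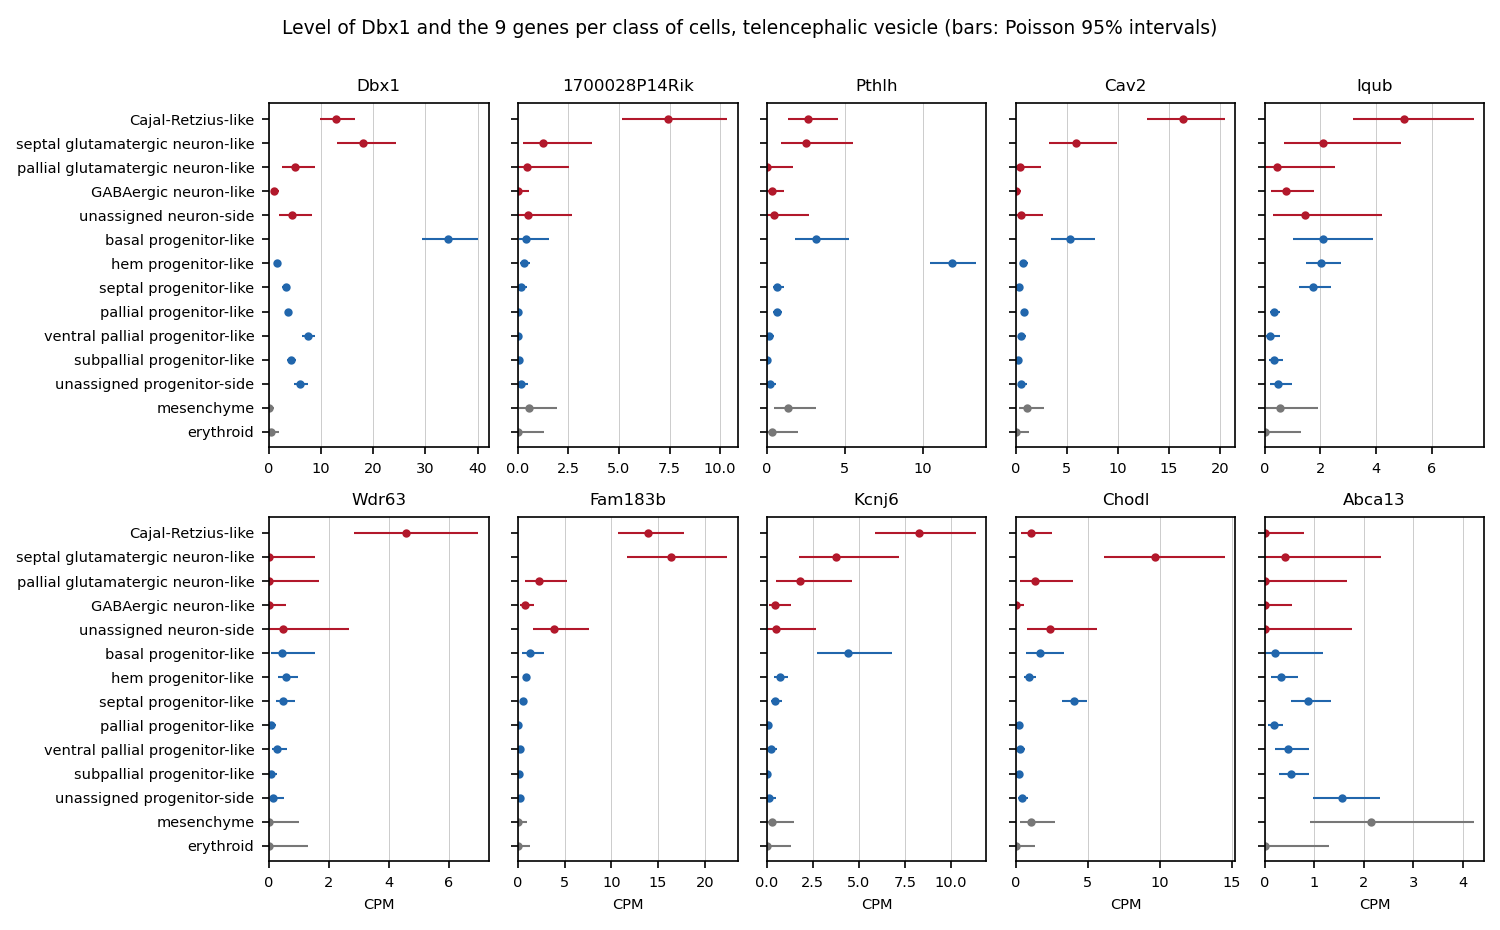
Level of Dbx1 and the 9 genes in each class of at least 50 cells of the telencephalic library, in CPM on a linear axis that differs between panels. Points are the summed level and bars its Poisson 95% interval, with neuron-side classes in red and other cells in grey. Progenitor-side classes and the basal progenitor-like class are in blue. Pthlh stood highest in hem progenitor-like cells at 11.8 CPM, Kcnj6, Wdr63, Cav2, Iqub and 1700028P14Rik in Cajal-Retzius-like cells, and Dbx1 in basal progenitor-like cells at 34.4 CPM.

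Red blood cell precursors, which should lack the 9 genes, give the level of free RNA. The 394 erythroid cells of the telencephalic library, with a median of 5412 UMIs against 6972 in Cajal-Retzius-like cells, held 1 Pthlh UMI and none of the other 8 genes, which allows a share of up to 0.761% of cells and 1.06 CPM for each. At an equal depth of 3500 UMIs, Cav2 was seen in 5.04% of Cajal-Retzius-like cells (3.35 to 7.24, exact binomial 95% interval; 7.38% before thinning) and in none of the erythroid cells. In the septal library only 26 erythroid cells were kept, with 3 Chodl UMIs and 1 Fam183b UMI among them, too few to set a level of free RNA. GABAergic neuron-like cells were used there as a low class, which does not measure free RNA. At 8000 UMIs Fam183b was seen in 16.1% of Cajal-Retzius-like cells (12.3 to 20.5; 20.3% unthinned) and in 0.877% of GABAergic neuron-like cells (0.106 to 3.13; 0.738% unthinned), whose median depths were 12180.5 and 10180.0 UMIs.

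Dbx1 itself had another order of classes than most of the 9 genes. It was at 62.4 CPM in septal glutamatergic neuron-like, 44.1 CPM in Cajal-Retzius-like and 32.8 CPM in basal progenitor-like cells of the septal library, and at 34.4 CPM in basal progenitor-like cells of the telencephalic library. At least 1 Dbx1 UMI was held by 518 septal cells (1077 UMIs, 220 cells with at least 2) and 513 telencephalic cells (886 UMIs, 165 cells with at least 2). Depth moved with this split, with medians of 11746 against 12997.5 UMIs in the septal library and 13477 against 8967 in the telencephalic library. The folds over all kept cells are therefore given also with every cell thinned to one number of UMIs where that moves them. Folds within classes are not given on thinned cells, and for some of them joint cells at equal depth are given instead.

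In the septal library the 6 genes with at least 50 UMIs were all at least 2-fold higher in Dbx1-positive cells, as 3.08% of all 13034 genes tested were, and nothing is read from this count because it is the measure by which they were chosen. The median fold was 8.93 for the 6 genes and 1.02 for all genes. Cav2 stood first of all genes at 27.9 against 2.30 CPM, 12.1-fold (9.81 to 14.98), and 1700028P14Rik second at 8.35 against 0.711 CPM, 11.7-fold (7.94 to 17.4). Fam183b (24.4 against 2.56 CPM, 9.51-fold) and Pthlh (21.6 against 2.59 CPM, 8.35-fold) stood at ranks 6 and 7, Iqub at rank 13 (7.79-fold) and Chodl at rank 43 (39.3 against 8.48 CPM, 4.63-fold, 4.01 to 5.34). With every cell thinned to 8000 UMIs, the folds of the 6 genes ran from 4.86 for Chodl to 13.6 for 1700028P14Rik. Wdr63 had 7 UMIs in Dbx1-positive and 8 in the far more numerous Dbx1-negative cells.

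In the telencephalic library 5 of the 9 genes reached 2-fold, where 0.968% of 16626 genes did. Chodl stood at rank 3 with 3.94 against 0.826 CPM (4.76-fold, 3.40 to 6.60), Wdr63 at rank 9 with 1.04 against 0.292 CPM (3.56-fold, 1.81 to 6.58) and Kcnj6 at rank 10 with 1.86 against 0.534 CPM (3.48-fold, 2.13 to 5.48). Fam183b (2.71-fold) and 1700028P14Rik (2.098-fold, 0.955 to 4.14) were just inside the limit. Abca13 (1.82-fold, 0.9005 to 3.35), Cav2 (1.75-fold, 1.14 to 2.59) and Iqub (1.45-fold, 0.849 to 2.34) were just outside it. Pthlh lay on the other side, at 0.668 CPM in Dbx1-positive against 2.14 CPM in Dbx1-negative cells (0.312-fold, 0.141 to 0.599).

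Equal depth moved these telencephalic folds. With every cell thinned to 3500 UMIs, 203 Dbx1-positive cells remained with 1 to 9 UMIs of each gene, and 7 of 9 genes reached 2-fold. The share of all genes that did so at this depth was not counted with either seed, so nothing is read from such counts. Cav2 was then at 6.99-fold (3.06 to 14.1), Kcnj6 at 10.99-fold (3.72 to 27.0), Wdr63 at 21.4-fold (5.90 to 65.2) and Chodl at 6.25-fold (1.93 to 15.8). The folds of Fam183b and 1700028P14Rik were 4.50 (1.41 to 11.1) and 4.27 (0.490 to 17.2). Abca13 (3.94-fold), Iqub (0.9496-fold) and Pthlh (0.610-fold) had 1 UMI each in the Dbx1-positive cells and intervals that included 1. With another random seed for the thinning, chosen after seeing the data, 6 genes reached 2-fold. Cav2 and Iqub were both at 4.13-fold there, Pthlh stood at 1.34-fold (0.160 to 5.01) with 2 UMIs, and Wdr63 and Abca13 had no UMI in the Dbx1-positive cells. At this depth, then, the side of the 2-fold limit was not settled for Iqub, Wdr63 and Abca13, nor was the direction for Pthlh. The folds of Cav2, Kcnj6, Chodl, Fam183b and 1700028P14Rik were above 2 with both seeds, which thin the same cells. Only Kcnj6 had a lower bound above 2-fold with both (2.63 to 22.5 with the second seed). The second-seed intervals were 1.30 to 10.1 for Cav2 and 0.931 to 15.1 for Chodl. They were 0.566 to 8.69 for Fam183b and 1.47 to 25.7 for 1700028P14Rik.

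**Figure D3:**
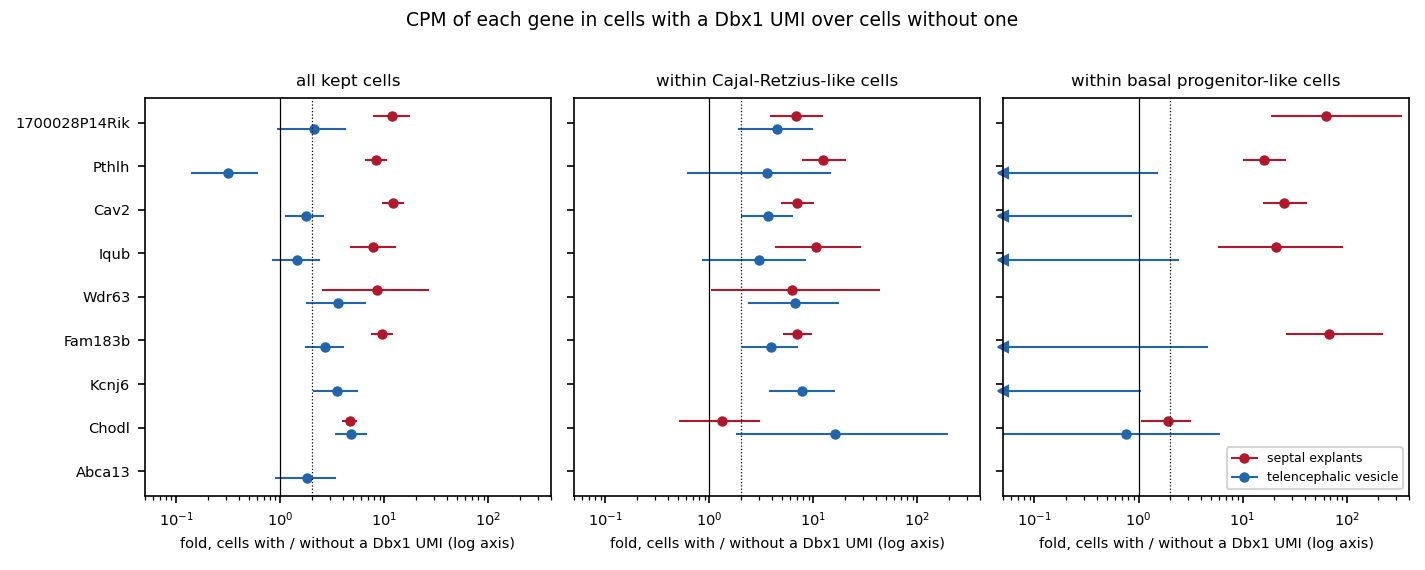
Level in cells with a Dbx1 UMI over the level in cells without one for each of the 9 genes, in all kept cells and within single classes of each library, on a log axis. Points are folds and lines counting 95% intervals, cut at the edges of the axis, left triangles mark genes without a UMI in the Dbx1-positive cells, the solid line is 1-fold and the dotted line 2-fold, and genes with under 5 UMIs in a group of cells are not drawn. Within septal-library basal progenitor-like cells Cav2 stood at 25.2-fold, whereas 8 of the genes had no UMI in the Dbx1-positive basal progenitor-like cells of the telencephalic library.

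The same direction was seen within single classes of the septal library. Among Cajal-Retzius-like cells, 66 with Dbx1 and 284 without, Pthlh was at 90.6 against 7.27 CPM (12.46-fold, 7.90 to 20.2), Fam183b at 140 against 19.9 CPM (7.01-fold, 5.18 to 9.54) and Cav2 at 114 against 16.4 CPM (6.97-fold, 4.98 to 9.80). For Iqub the fold was 10.5 (4.35 to 27.9) and for 1700028P14Rik 6.81 (3.94 to 11.97). Chodl was at 10.1 against 7.54 CPM, and its interval of 0.526 to 3.01-fold included 1. Markers moved with this split. Trp73, one of those that define the class, was at 160 against 92.4 CPM in the same cells, Reln at 128 against 153 CPM and Foxj1, the master regulator of motile cilia, at 120 against 32.0 CPM, and their part in the folds was not tested.

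Within septal glutamatergic neuron-like cells (114 with Dbx1, 299 without) the genes parted. Chodl was at 135 against 71.7 CPM (1.88-fold, 1.53 to 2.31) and Pthlh, with 20 against 6 UMIs, at 8.53-fold (3.30 to 25.9). Fam183b, at 14.5 against 18.3 CPM, had an interval of 0.440 to 1.37-fold. Chodl was also higher in Dbx1-positive septal progenitor-like cells of the septal library, 35.3 against 11.4 CPM (3.104-fold, 2.27 to 4.20), and of the telencephalic library, 14.8 against 2.85 CPM (5.18-fold, 3.28 to 8.06).

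The sharpest split was among basal progenitor-like cells of the septal library, where 58 of 490 cells held Dbx1. These 58 cells held 82 of the 109 Cav2 UMIs (25.2-fold, 16.1 to 40.5), 41 of the 46 Fam183b UMIs (68.0-fold, 26.9 to 221), 23 of the 26 1700028P14Rik UMIs (63.6-fold, 19.2 to 331) and 60 of the 91 Pthlh UMIs (16.1-fold, 10.2 to 25.6). At least 1 of the 6 genes highest in Cajal-Retzius-like cells of the septal library (1700028P14Rik, Pthlh, Cav2, Iqub, Wdr63 and Fam183b, grouped after their levels were seen) was found in 24 of the 58 cells (41.4%) and in 19 of the other 432 (4.40%). The Dbx1-positive basal progenitor-like cells were also at 99.2 CPM of Trp73 against 15.4 CPM, at 195 CPM of Foxj1 against 23.4 CPM, and at 456 CPM of Neurog2 against 1254 CPM. In the same cells the median log2 ratio of neuron to apical progenitor markers was 2.67 against 2.18. These values moved with the split, and their part in it was not tested.

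In basal progenitor-like cells of the telencephalic library the split was not seen. The 72 Dbx1-positive cells held no UMI of 8 of the 9 genes and 1 Chodl UMI, whereas the 437 Dbx1-negative cells held 25 UMIs of Cav2, 21 of Kcnj6, 15 of Pthlh, 10 of Iqub and 6 of Fam183b. For Cav2, at 6.27 CPM in the Dbx1-negative cells, the upper bound of the fold was 0.850. For the other 7 genes at 0 the upper bound was above 1-fold, from 1.03 for Kcnj6 upward, and a lower level was not detectable at this depth. The same 72 cells held no Trp73 UMI and 1 Foxj1 UMI, against 30.8 and 21.6 CPM in the Dbx1-negative cells. In the 72 cells the summed level of the ventral pallial progenitor markers was 738 against 441 CPM. Their median log2 ratio of neuron to apical progenitor markers was 0.212 against 1.64. The part of these values in the difference was not tested.

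In telencephalic Cajal-Retzius-like cells 1700028P14Rik, Cav2, Wdr63 and Fam183b were higher with Dbx1, as in those of the septal library. Septal Wdr63 rested on 4 against 3 UMIs (6.23-fold, 1.05 to 42.5), and at equal depth on 1 joint cell (ratio 1.53, 0.0387 to 8.53). Kcnj6, which had 1 UMI in the septal class, was higher too. In 32 Dbx1-positive against 510 Dbx1-negative cells Kcnj6 was at 41.0 against 5.24 CPM (7.84-fold, 3.85 to 15.6), Wdr63 at 20.5 against 3.09 CPM (6.63-fold, 2.38 to 17.3), 1700028P14Rik at 25.7 against 5.71 CPM (4.49-fold, 1.92 to 9.75), Fam183b at 43.6 against 11.2 CPM (3.90-fold, 2.099 to 6.92) and Cav2 at 48.8 against 13.3 CPM (3.66-fold, 2.05 to 6.25). Chodl had 3 against 2 UMIs (16.2-fold, 1.85 to 194), and the intervals of Pthlh (0.626 to 14.4-fold) and Iqub (0.869 to 8.37-fold) included 1. Markers moved with this split as well, with Trp73 at 139 against 66.2 CPM, Foxj1 at 69.3 against 36.9 CPM and Reln at 149 against 244 CPM, and the median position on the progenitor to neuron order described below (a log2 ratio) was 2.101 against 3.29. Their part in the folds was not tested. Among hem progenitor-like cells, where Pthlh was most abundant, the 18 Dbx1-positive cells held 3 Pthlh UMIs against 253 in the others (0.340-fold, 0.0696 to 1.004).

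The levels rose with the number of Dbx1 UMIs in the septal library. Cav2 was at 2.30 CPM in the 4866 cells without Dbx1, at 11.3 CPM in the 298 cells with 1 Dbx1 UMI, at 21.5 CPM in the 104 with 2 and at 79.9 CPM in the 116 with 3 or more. Over the same steps Fam183b was at 2.56, 10.2, 15.003 and 72.7 CPM and Pthlh at 2.59, 3.30, 20.2 and 73.4 CPM. Chodl, at 8.48, 30.7, 43.7 and 58.4 CPM, rose less steeply from the second value on. In the telencephalic library Cav2 was at 1.23, 1.85, 2.67 and 2.88 CPM and Iqub at 0.975, 0.982, 1.60 and 2.88 CPM, with 7 UMIs of each in the last step and overlapping intervals among the 3 Dbx1-positive steps. Chodl, at 0.826, 4.36, 4.27 and 2.06 CPM, and Wdr63, at 0.292, 1.09, 2.13 and 0 CPM, did not rise at every step.

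Summed levels weight deep cells more, so co-detection was also counted after thinning every cell to one depth, with cells below it left out (511 septal, 1145 telencephalic). In the septal library 325 of 4873 cells held Dbx1 at 8000 UMIs. Cav2 and Dbx1 were found together in 38 cells where the product of both shares gives 6.47, a ratio of 5.87 (4.16 to 8.06). The ratio was 6.79 (4.35 to 10.1) for 1700028P14Rik, 5.60 (3.88 to 7.83) for Pthlh, 4.86 (2.51 to 8.49) for Iqub, 4.38 (3.102 to 6.02) for Fam183b and 3.46 (2.63 to 4.46) for Chodl. All 6 genes seen in at least 20 of these cells had a lower bound above 1, as had 8.41% of the 13300 genes seen in so many. Wdr63, outside that set with 4 joint cells of 11, had one too (5.45, 1.49 to 13.96). With another random seed Wdr63 had 3 joint cells and a lower bound below 1 (4.42, 0.911 to 12.9), and the other 6 genes stayed above it.

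At 3500 UMIs the telencephalic library left 203 Dbx1-positive cells of 10613, and joint cells were few. Of the 7 genes seen in at least 20 of these cells, Kcnj6 (5 joint cells, ratio 7.92, 2.57 to 18.5) and Chodl (4 cells, 4.86, 1.33 to 12.45) had a lower bound above 1. Of all 15386 genes seen in so many cells, 3.56% had one. Wdr63, outside that set with 3 joint cells of 14, had one too (11.2, 2.31 to 32.7). With another random seed Wdr63 had no joint cell, and Kcnj6 and Chodl kept a lower bound above 1. The other 6 genes, with 1 to 4 joint cells each, had an interval that included 1, so their ratios could not be told from 1 at this depth. Pthlh had 1 joint cell where 1.43 were given by the shares. Without thinning, and with shares taken within 10 groups of cells of like depth, it had 8 joint cells against 16.8 (0.477, 0.206 to 0.940).

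**Figure D4:**
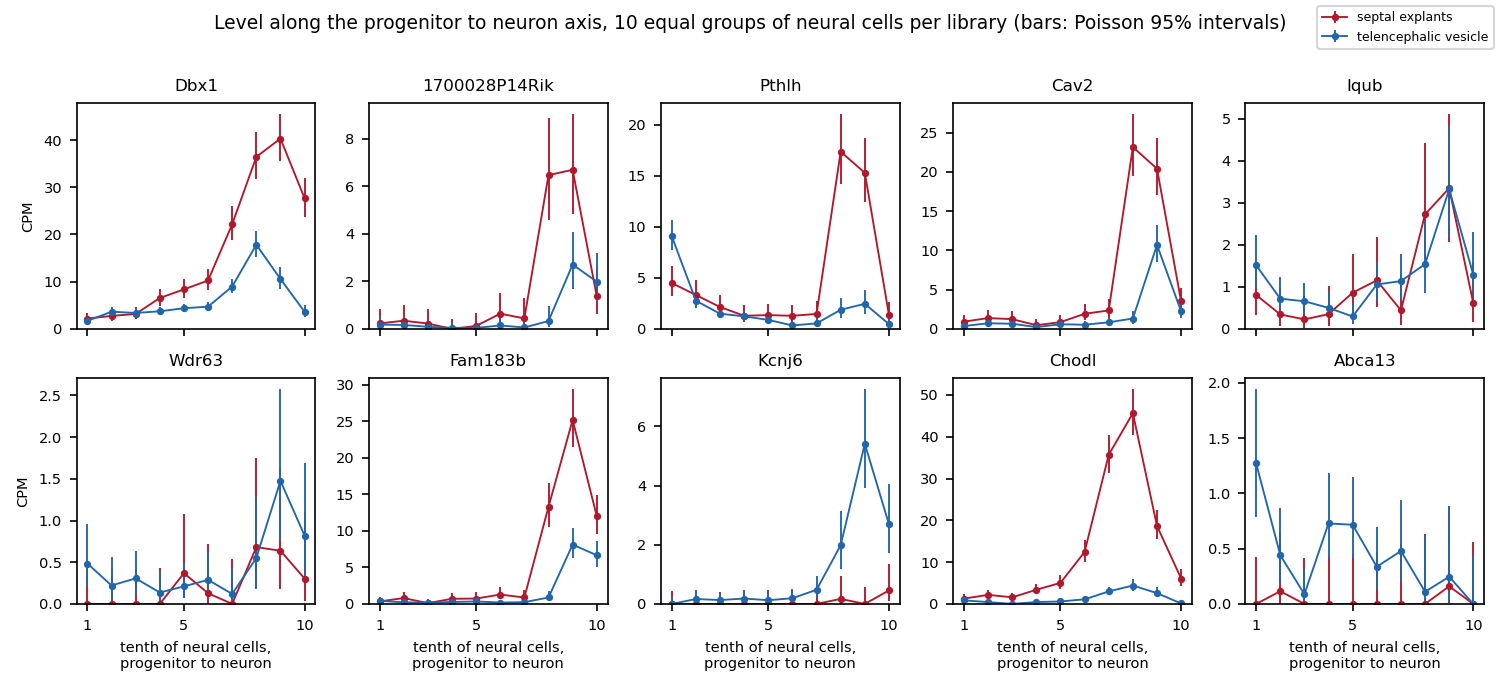
Level of Dbx1 and the 9 genes over 10 bins of neural cells of each library, numbered and ordered from apical progenitor-like to neuron-like by the log2 ratio of the summed neuron and apical progenitor markers, in CPM on linear axes. Points are summed levels and bars Poisson 95% intervals, and each line is one library on its own. In the septal library Chodl peaked in bin 8 at 45.6 CPM and Fam183b in bin 9 at 25.2 CPM, and in the telencephalic library Pthlh was highest in bin 1 at 9.09 CPM.

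Along the order from progenitor to neuron most of the genes appeared late and then declined. The order rests on marker genes that include none of the 9, and the cells were cut into 10 bins of equal number. Cav2 in the septal library was between 0.468 and 2.35 CPM in bins 1 to 7, at 23.2 CPM (19.4 to 27.4) in bin 8, at 20.4 CPM in bin 9 and at 3.50 CPM (2.22 to 5.25) in bin 10. Pthlh showed the same pair of high bins, 17.4 and 15.3 CPM, followed by 1.37 CPM. Chodl rose earlier, with 12.4 CPM in bin 6, 35.7 CPM in bin 7 and 45.6 CPM (40.3 to 51.4) in bin 8, and Fam183b stayed at 12.01 CPM (9.51 to 14.97) in bin 10. Dbx1 rose from 2.19 CPM in bin 1 to 40.3 CPM in bin 9.

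Cav2 in the telencephalic library was at 10.7 CPM (8.57 to 13.2) in bin 9 and at most 2.22 CPM elsewhere, and Chodl was highest in bin 8 at 4.40 CPM (3.15 to 6.00), as was Dbx1 at 17.8 CPM. Pthlh had its maximum at the other end, 9.09 CPM (7.69 to 10.7) in bin 1. Hem progenitor-like cells had the lowest median of the neural classes on this order, -3.04. It lay between the medians of bin 1 (-3.70) and bin 2 (-2.97), and the classes in each bin were not counted. A second, lower rise of Pthlh to 2.46 CPM (1.502 to 3.799) lay in bin 9.

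Several of the genes were also found together in cells without a Dbx1 UMI. Joint detection of pairs did not enter their choice, but the levels in these cells did. The 6 genes below were grouped because they were highest in the same class of the septal library. Joint cells over all classes follow in part from that grouping, so they are a description. The share of other gene pairs above their expected number was not counted. Among such cells of equal depth in the septal library, all 15 pairs of the 6 genes highest in Cajal-Retzius-like cells were seen in at least 1 cell. Only 3 of these pairs had an expected number of at least 0.5 joint cells from the product of shares, and all 3 were above it, namely Cav2 with Pthlh (10 cells against 0.67), Pthlh with Fam183b (9 against 1.002) and Cav2 with Fam183b (9 against 0.95). Within Cajal-Retzius-like cells without Dbx1, where differences between classes do not enter, 5 pairs could be judged. Of these 4 had a ratio with a lower bound above 1, from 4.08 to 7.77. The cells of this class can still differ among themselves, and the part of such differences was not tested. Cells without a Dbx1 UMI can still contain Dbx1 transcripts that were not captured.

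Chodl did not join them. It was found in 0 cells together with Pthlh (2.35 expected), with Cav2 (2.22), with 1700028P14Rik (1.05) or with Iqub (1.01), and in 6 cells with Fam183b (3.31), and none of the 5 Chodl pairs that could be judged was above its expected number beyond counting error. Among telencephalic cells the 15 pairs were again all seen, with 7 cells for Cav2 and Iqub (0.26 expected) and 6 for Pthlh and Cav2 (0.40), and 1 of the 8 Chodl pairs was seen, with Iqub. No pair reached an expected number of 0.5 among all these cells, so none was judged there. Within telencephalic Cajal-Retzius-like cells without Dbx1 the 1 pair that could be judged, Cav2 with Fam183b, was found in 3 cells against 0.51 (5.83, 1.20 to 17.0).

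**Figure D5:**
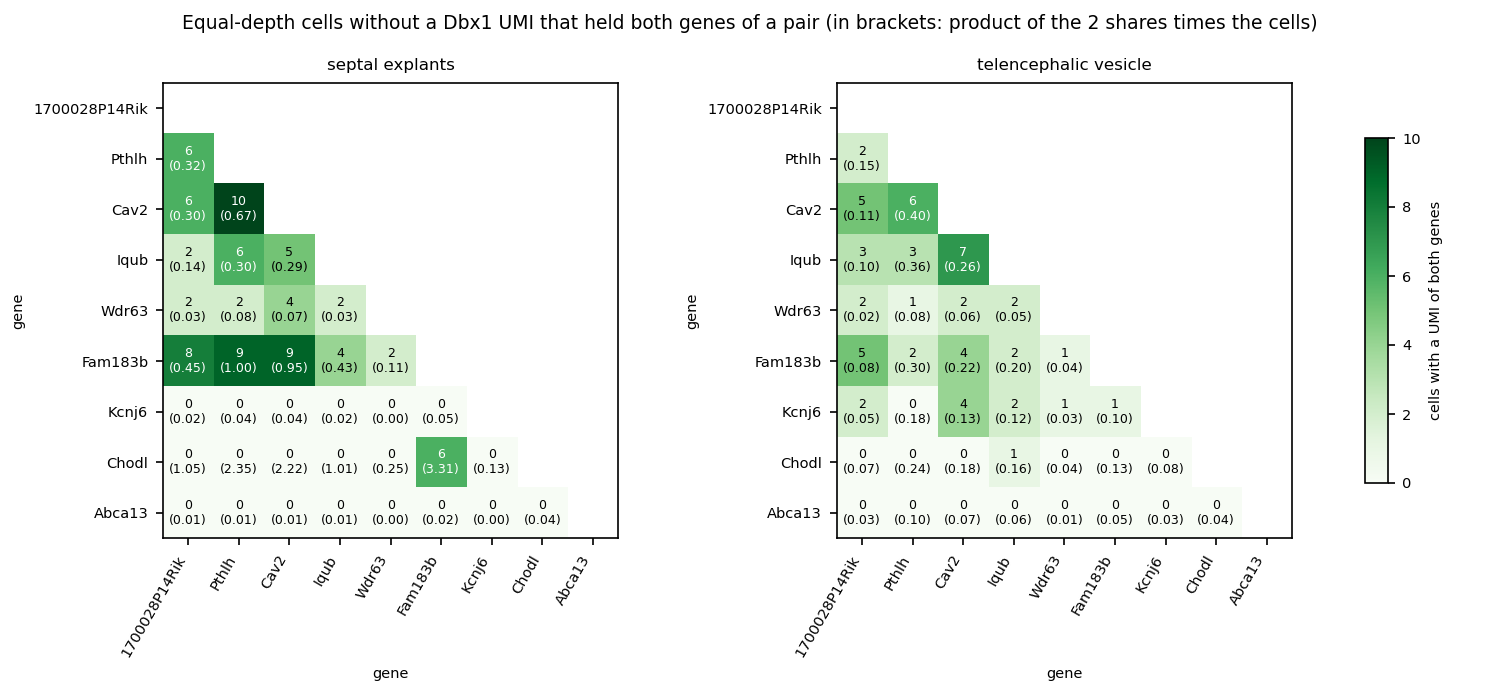
Number of equal-depth cells without a Dbx1 UMI that held a UMI of both genes of each pair, with the number given by the product of the 2 shares in brackets, for each library. The colour scale runs from 0 to 10 cells. Cav2, Pthlh, Fam183b and 1700028P14Rik form the dark squares of the septal library, and the row of Chodl is 0 except with Fam183b and with 6 cells there.

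At least 3 of the 9 genes were found in 56 septal cells, of which 31 were Cajal-Retzius-like and 14 basal progenitor-like, and 38 held Dbx1. Their median depth of 11116 UMIs was below that of all kept cells, and the highest number in a cell was 6. Of the telencephalic cells 47 held 3 or more, 26 of them Cajal-Retzius-like and 5 basal progenitor-like, and 14 held Dbx1. At least 2 were held by 17.1% of septal-library and 7.01% of telencephalic Cajal-Retzius-like cells, against 2.45% and 1.08% of all kept cells. The 16 telencephalic cells with 3 or more genes that were neither Cajal-Retzius-like nor basal progenitor-like, 6 of them hem progenitor-like, had a median depth of 31432 UMIs against 9058.5 for all kept cells, and the part of depth in their number of genes was not tested. The 11 such septal cells had a median of 8787 UMIs. Some of these cells were of a rare kind: 2 of 6 septal and 2 of 17 telencephalic choroid plexus cells, which are multiciliated epithelium and too few to be compared, held 3 or more, and the telencephalic ones were at 30.4 CPM of Iqub (14.6 to 55.9) and 27.4 CPM each of Pthlh and 1700028P14Rik (12.51 to 51.9).

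The tdTomato reporter gave a measure of Dbx1 history that did not choose the genes. It was read in 403 septal cells (792 UMIs), of which 67 held Dbx1, and their depth was close to that of the other 4981 cells, with medians of 12888 and 12865 UMIs. Chodl was at 28.7 against 9.90 CPM (2.90-fold, 2.44 to 3.42), and with 1 tdTomato UMI as the limit it was the 1 of 6 tested genes that reached 2-fold, as 1.17% of all genes did. Fam183b was at 8.03 against 4.32 CPM (1.86-fold, 1.35 to 2.52). Cav2 (1.05-fold, 0.695 to 1.52), Iqub (1.004-fold, 0.356 to 2.30), Pthlh (0.732-fold, 0.441 to 1.15) and 1700028P14Rik (0.553-fold, 0.176 to 1.33) had intervals that included 1, although Cav2 and 1700028P14Rik were the genes with the largest folds in Dbx1-positive cells. The count depended on the limit, and the share of all genes was not counted for the other limit and the equal depth that follow. With at least 2 tdTomato UMIs required (137 cells) 4 of 6 genes reached 2-fold, namely Chodl (5.47-fold, 4.44 to 6.67), Fam183b (5.003-fold, 3.54 to 6.92), Iqub (2.65-fold, 0.835 to 6.48) and Cav2 (2.18-fold, 1.31 to 3.41), while Pthlh (1.14-fold) and 1700028P14Rik (1.05-fold) had intervals that included 1. At an equal depth of 8000 UMIs Chodl (3.83-fold) and Fam183b (2.71-fold) reached it.

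Among cells without a Dbx1 UMI, Chodl was at 2.35-fold (1.87 to 2.94) and Fam183b at 2.32-fold (1.49 to 3.48) in tdTomato-positive cells, 2 of 5 genes, as 1.26% of all genes were. Because only the E12.5 embryos could make tdTomato, the cells without an eYFP UMI were also taken alone (291 against 1330 cells, an alternative chosen after seeing the data). There Fam183b was at 3.90-fold (2.52 to 6.02) and Chodl at 2.38-fold (1.91 to 2.95), and Pthlh (1.67-fold, 0.912 to 2.93) and Cav2 (1.43-fold, 0.816 to 2.40) were not beyond counting error. With Dbx1-positive cells also left out (243 against 1204 cells), only Chodl had at least 50 UMIs, at 1.81-fold (1.34 to 2.40). Below that number, Pthlh (14 against 17 UMIs) was at 3.79-fold (1.73 to 8.16) and Fam183b at 5.22-fold (2.83 to 9.72). The intervals of Cav2 (1.19-fold), Iqub (0.575-fold) and 1700028P14Rik (0.766-fold) included 1 there. Of the 403 tdTomato-positive cells 38 also had 3 or more eYFP UMIs, a combination that the genotypes do not give.

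Within classes the reporter moved with Chodl in one class and with Fam183b in another. The cells without tdTomato include E11.5 cells, which could not make it, so stage and reporter cannot be told apart in these folds. Pthlh and Cav2 in basal progenitor-like cells and Chodl in septal glutamatergic neuron-like cells also differed between the embryo sets, as given below. In septal glutamatergic neuron-like cells Chodl was at 157 against 78.0 CPM (2.005-fold, 1.58 to 2.52). In Cajal-Retzius-like cells, 39 with tdTomato, Fam183b was at 59.9 against 38.4 CPM (1.56-fold, 1.04 to 2.28) and Chodl, with 9 against 27 UMIs, at 2.395-fold (0.991 to 5.25), while Cav2 (36.3 against 33.4 CPM) and Pthlh (18.1 against 22.5 CPM) had intervals around 1. The 51 basal progenitor-like cells with tdTomato, of which 7 held Dbx1, held none of the 91 Pthlh UMIs and 1 of the 109 Cav2 UMIs of their class (0.0747-fold, 0.00187 to 0.425), and Chodl in these cells was at 13.4 against 17.2 CPM (0.780-fold, 0.346 to 1.55).

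The cells of the 2 embryo sets differed for some of the genes. In basal progenitor-like cells Pthlh was at 18.2 CPM (13.8 to 23.7) in the 230 cells with 3 or more eYFP UMIs and at 2.20 CPM (0.5999 to 5.64) in the 158 cells without eYFP, and Cav2 at 19.8 CPM (15.2 to 25.5) and 7.71 CPM (4.21 to 12.9). Dbx1 was at 37.1 and 23.7 CPM in the same cells. Chodl in septal glutamatergic neuron-like cells went the other way, with 62.0 CPM (52.5 to 72.8) and 128 CPM (109 to 148). In Cajal-Retzius-like cells Cav2 was at 35.3 and 40.7 CPM and Fam183b at 42.8 and 51.1 CPM, with overlapping intervals. Stage, genotype and litter move together in this split and cannot be told apart, and cells without eYFP can include E11.5 cells in which no eYFP transcript was captured.

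The pathways of the 9 genes were read from fixed lists that leave the 9 genes out, comparing Cajal-Retzius-like cells with all other neural cells. Of 91 listed motile axoneme genes, 52 could be tested in the septal library, and 34 were at least 2-fold higher and 2 at least 2-fold lower (Cfap43 and Spag16), with a median log2 fold of 1.68 against -0.00 for all genes. Of all genes 14.4% were at least 2-fold higher and 16.5% lower. The most abundant were Tppp3, a microtubule-associated protein, at 264 against 30.8 CPM (8.56-fold, 7.97 to 9.19), Ccno, a cyclin-like protein of multiciliated cells, at 106 against 14.6 CPM (7.21-fold, 6.45 to 8.04), and Mlf1 at 82.7 against 27.9 CPM (2.96-fold). Foxj1 was at 47.5 against 8.95 CPM (5.30-fold, 4.52 to 6.201).

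For the telencephalic library 74 axoneme genes could be tested, with 48 higher and 3 lower (median log2 fold 1.49 against -0.09), where 14.7% of all genes were higher and 19.5% lower. Ccno was at 59.5 against 2.42 CPM (24.6-fold, 21.0 to 28.7), Tppp3 at 65.3 against 5.30 CPM (12.3-fold), and Rfx3, the most abundant, at 310 against 239 CPM (1.30-fold). Primary cilium genes did not share this pattern. Of them 3 of 29 were higher and 2 lower in the septal library, where Ift22, Kif3a and Ift43 were the most abundant, and 1 of 30 higher and 2 lower in the telencephalic library, led by Kif3a, Ift43 and Ift20. In septal glutamatergic neuron-like cells 6 of 52 axoneme genes were higher and 0 lower in the septal library, where 6.74% of all genes were higher and 9.83% lower. In the telencephalic library 37 of 74 were higher and 2 lower, where 13.1% of all genes were higher and 14.8% lower.

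The partners of the other genes were not shared in the same way. Pth1r, the receptor of the Pthlh product, was at 6.88 CPM in septal-library Cajal-Retzius-like cells against 7.88 CPM in other neural cells (0.873-fold, 0.588 to 1.25), and at 6.32 against 6.44 CPM in the telencephalic library (0.980-fold, 0.653 to 1.42), where Pth2r had 2 UMIs. Of the caveola genes 1 of 5 was higher and 2 lower in the septal library, and 1 of 7 higher and 2 lower in the telencephalic library. Their most abundant members were Pacsin2 (12.6 against 23.7 CPM), Prkcdbp (4.66 against 11.01 CPM) and Murc (4.44 against 2.19 CPM) in the septal library and Cavin4 (24.0 against 10.97 CPM), Pacsin2 and Ehd2 in the telencephalic library. Cav1, with which Cav2 forms caveolae, had 7 UMIs in septal-library Cajal-Retzius-like cells and none in the telencephalic ones. The only inward rectifier gene tested in the septal library, Kcnj10, was lower. In the telencephalic library 2 of 7 were higher, the GIRK subunits Kcnj3 (6.75 against 2.04 CPM, 3.31-fold, 2.21 to 4.79) and Kcnj9 (1.31 against 0.414 CPM, 3.16-fold, 1.12 to 7.24), and 2 were lower, while Kcnj13 was as abundant as Kcnj9 at 1.31 CPM. Among other ABCA transporters 2 of 5 septal and 3 of 8 telencephalic genes were higher and 0 and 1 lower, with Abca3 (13.8 against 4.71 CPM), Abca2 and Abca7 most abundant in the septal library and Abca3, Abca1 and Abca7 in the telencephalic library. Of the relatives of Chodl the 1 gene tested in the septal library, Cd248, was higher (6.14-fold, 3.57 to 10.2), and in the telencephalic library 1 of 5 was higher and 3 were lower, with Cd248, Cd93 and Layn most abundant.

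Genes whose levels over classes were most like those of the 9 together were found by Pearson's r over 11 classes of the septal library, among 12893 candidates. They were Sct, the hormone secretin (r = 0.966), Ccdc67 (0.939), Gnb3 (0.937), Dynlrb2, a light chain of dynein (0.935), and Kcne1l (0.930). Over 14 classes of the telencephalic library, among 16466 candidates, they were Drc3, a part of the dynein regulatory complex (0.954), 1700001K23Rik (0.936), Sct (0.925), Cdkn1a (0.923) and Dynlrb2 (0.919). Sct and Dynlrb2 were in both lists. The classes share a library and differ in depth and cell number, so r is a description.

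Taken one at a time, the nearest gene in the septal library was Fxyd3 for 1700028P14Rik (r = 0.980), Bfsp2 for Pthlh (0.924), Ccdc67 for Cav2 (0.969), Sfn for Iqub (0.954), Ppp1r32 for Fam183b (0.956) and Spsb4 for Chodl (0.928). In the telencephalic library it was 1700001K23Rik for 1700028P14Rik (0.962), Fam163a for Pthlh (0.918), Rasgef1c for Cav2 (0.942), Gm27199 for Iqub (0.913), Cftr for Wdr63 (0.948), Lrrc55 for Fam183b (0.948), D930007P13Rik for Kcnj6 (0.974), Gm28703 for Chodl (0.879) and Gli1, a target of hedgehog signalling, for Abca13 (0.942). The r with Dbx1 itself ran from 0.368 for Pthlh to 0.848 for Chodl over the septal classes and from -0.210 for Abca13 to 0.700 for Kcnj6 over the telencephalic ones.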

How the data were processed

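Counts of UMIs per gene and cell were deposited by the authors as 1 matrix per library. Per the submitters' processing notes, reads were aligned and counted with Cell Ranger 2.1.1 (septal explants) and 7.1.0 (telencephalic vesicle) on mm10, extended with reporter and other added sequences. The study's methods give default settings for the septal library, which in that version count exonic reads on the gene's strand; whether intronic reads were counted for the telencephalic library is not given in the sources used here. The tables hold 5827 and 14283 barcodes with 83103280 and 194821794 UMIs. Barcodes within 3 median absolute deviations of the median mitochondrial share were kept (5444 and 12471), and doublets called with Scrublet in scanpy 1.11.5 were removed (60, 1.10%, and 713, 5.72%). The rate assumed beforehand, 0.8% per 1000 barcodes, gives 4.36% and 9.98%, so uncalled doublets can remain among the kept cells.

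Python 3.11.15 with numpy 2.4.6, scipy 1.17.1 and pandas 2.3.3 was used. The markers of the classes were fixed, but their limits (at least 3 different markers, marker shares) were set after the counts had been seen. Of all kept cells, whatever their class, 126 septal and 213 telencephalic ones had a basal progenitor marker share within 10% of its limit, on either side. A gene was tested with at least 50 UMIs, a class compared with at least 50 cells, and a gene called at 2-fold. Floors are 3 counts. Intervals are exact Poisson, exact binomial or, for folds, exact conditional binomial at 95%. Equal depth was reached by random thinning to 8000 and 3500 UMIs. With 1 library per condition no test was possible. All genes of the group are named, with the 5 most alike to them together, the 1 most alike to each and the 3 most abundant of each pathway list, and others were named after their values were seen. The scripts were tested on simulated data. The group of genes and the lists were chosen with earlier results of these data known. Alternatives changed the cell filter, doublet removal, depth, UMI limits, marker number and random seed.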

Additional observations from a re-analysis of the deposited data

Results flagged for a closer look

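Pthlh was 8.35-fold higher in Dbx1-positive cells of the septal library and 0.312-fold, that is lower, in those of the telencephalic library, and it was singled out because the direction differed between the libraries, each of which is 1 pooled sample; the difference was not tested. At equal depth the telencephalic fold was 0.610 with 1 Pthlh UMI in the Dbx1-positive cells, and 1.34 with 2 UMIs under another random seed. Without thinning, 8 telencephalic cells held both Pthlh and Dbx1 where shares within 10 depth groups give 16.8 (ratio 0.477, 0.206 to 0.940). The telencephalic library contained 1018 hem progenitor-like cells, which held 72.3% of its Pthlh UMIs and of which 18 held Dbx1, and the part of this class in the difference was not tested.

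Cav2 had 82 UMIs in the 58 Dbx1-positive basal progenitor-like cells of the septal library and 0 in the 72 of the telencephalic library, against 27 and 25 UMIs in the Dbx1-negative ones. This was singled out for opposite directions of the summed levels in the 2 libraries, and the difference was not tested. Trp73 was at 99.2 CPM in the first group of cells and had no UMI in the second. The median log2 ratio of neuron to apical progenitor markers was 2.67 in the first group and 0.212 in the second. In the Dbx1-negative cells it was 2.18 and 1.64, and the part of these values was not tested. Counted as cells at equal depth, 0 telencephalic basal progenitor-like cells held both Cav2 and Dbx1 where 0.81 were expected. A lower share with Dbx1 was therefore not detectable there.

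Sequences added to the reference, outside the comparisons, were detected. The sequence named IRESCRE was read in 24 septal cells (26 UMIs), of which 11 held Dbx1 and 12 held at least 1 of the 9 genes. The sequence named LacZ was read in 9 telencephalic cells (11 UMIs), of which 5 held Dbx1 (55.6%, exact binomial 95% interval 21.2 to 86.3) and 1 held any of the 9 genes. The embryos of that library are labelled wild-type, and no control sample without these sequences was available for comparison.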

How the results depend on the processing

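No paired analysis was possible because each condition is 1 library. The count of genes at least 2-fold higher in Dbx1-positive cells was 6 of 6 in the septal library under every alternative with at least 20 UMIs per gene and 9 of 9 without that minimum. In the telencephalic library it was 5, ran from 4 to 7 under most alternatives and was 8 when at least 2 Dbx1 UMIs were required. The count at least 2-fold higher in tdTomato-positive cells was 1, and it was 2 with each cell thinned, 4 with at least 2 tdTomato UMIs, 2 of 9 without a UMI minimum and 2 in cells without an eYFP UMI (the last chosen after seeing the data). The counts of leading classes did not move under the alternatives run. The shares of all genes given above belong to the main settings and were not counted under these alternatives. Genes with more co-detection than expected numbered 7 in the septal library and 6 with another random seed, and 3 in the telencephalic library and 2 to 4 under its alternatives. Another random seed, which for the folds was chosen after seeing the data, gave 0 for the telencephalic co-detection ratio of Wdr63 (11.2 before, on 3 cells), 0 for its fold at equal depth and 0 for the septal fold of Kcnj6 at equal depth. Of 89 folds recomputed, 64 stayed within their counting interval, 23 moved beyond it (21 upward) and 2 reversed a gene that had been at least 2-fold higher, and in all 5 folds came to lie on the other side of 1. Of 90 co-detection ratios 74 stayed within, 15 moved beyond and 1 reversed, and 10 came to lie on the other side of 1. Joint cells at equal depth are few in the telencephalic library, and depth limits Kcnj6, Wdr63 and Abca13 in the septal one. Many UMIs come from few cells (up to 15 in 1 cell), so Poisson intervals are too narrow where cells differ.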
